A study of Capra hircus with 8 samples.

Results

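Skin of cashmere goats was compared with skin of milk goats in months 6 and 9, the months in which hair genes took a high share of the reads in both breeds. The comparison was set by breed and month alone and used 4 of the 8 libraries of the series, cashmere goats in months 6 and 9 against milk goats in the same 2 months, paired by month. The other 4 libraries, from months 3 and 12, entered where stated, in fits of all 8 libraries and for the breed difference in those months. The study as titled concerns the seasonal hair follicle cycle, and no genotype, treatment or strain beyond the 2 breed names is labelled. In the sample labels the month stands under age, whereas the design text speaks of different months, so the age of the animals and the time of year cannot be told apart. Each breed and month has 1 library, and the labels do not say whether a library is 1 animal or a pool. Their protocol text mentions an embryo although the tissue is given as skin. P-values therefore measure the spread between these libraries only, which may be technical.

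Cashmere goats grow a long fine undercoat from secondary hair follicles, while milk goats are bred for milk. A growing follicle builds a shaft of hair keratins, which are cross-linked by cysteine-rich keratin-associated proteins, inside an inner root sheath filled with trichohyalin. The dermal papilla below the hair matrix sends Wnt, FGF and BMP signals that time growth and rest. The same bulk skin also holds epidermis, sebaceous and sweat glands, arrector pili muscle, vessels, nerves, pigment cells and immune cells.

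The cashmere libraries held 8152447 reads in month 6 and 8718429 reads in month 9, and the milk libraries held 12841576 and 13899750 reads. Levels are given as CPM, counts per 1000000 reads scaled by TMM factors, and a count of 3 reads stood for 0.219 to 0.342 CPM. Epidermal keratins were abundant in all 4 libraries. KRT5, a keratin of basal keratinocytes, was at 8435 and 9106 CPM in cashmere goats in months 6 and 9 and at 7120.4 and 9244 CPM in milk goats. The melanocyte genes PMEL, TYRP1 and DCT were at 2.51 CPM or less everywhere. The milk library of month 9 stood apart, because TCHH alone, which encodes trichohyalin, took 12.96% of its reads, against 4.70% and 4.89% in the cashmere libraries and 5.72% in the milk library of month 6.

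Over 14163 tested genes, 1333 differed between the breeds at an adjusted p of at most 0.05 (edgeR quasi-likelihood test with month as a term, Benjamini-Hochberg), which is 9.41% of the genes. Of these, 518 genes (3.66%) were higher in cashmere goats and 815 (5.75%) were lower, and the median log2 fold change, cashmere over milk, was 0.04. In simulated counts of this design the share of false calls was above that threshold, so the adjusted p given here may be too small. The count of 1333 rests on 1 residual degree of freedom, on the month term and on a spread shared across genes. That sharing was worth 47.0 prior degrees of freedom, against 10.1 with RLE size factors, so small p-values draw mostly on other genes. Without the month term 0 genes were called and 2036 had an unadjusted p under 0.05. Other scalings called 242 to 534 genes and DESeq2 called 443. The balance of directions moved too, to 302 higher and 197 lower with library totals alone and to 478 higher and 167 lower with limma on log2(FPKM + 1), FPKM being reads scaled by gene length and depth. Those 2 fits moved the median of all genes to 0.22 and 0.18. A set of 166 genes, 83 higher and 83 lower, was called in the edgeR fit and also with 3 other scalings, the stricter filter, DESeq2 and limma on 2 log2 FPKM scales, 7 alternatives in all. In a fit of all 8 libraries 8 genes were called. With a library left out and no month term, 0 genes were called without either cashmere library, 1016 without the milk library of month 6 and 19 without the milk library of month 9.

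The 2 months gave similar breed ratios for many genes. Among 11530 genes with a mean of at least 5 CPM, 7838 had the same sign of the breed log2 ratio in both months, and the ratios correlated across genes with a Pearson r of 0.54. Genes are not independent replicates, and the ratios share no library. The breed ratio was at least 2-fold for 382 of these genes in month 6 and for 1038 in month 9. Between months within a breed, the same count was 264 in cashmere goats and 765 in milk goats, so the milk library of month 9 was part of both wide pairs.

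**Figure D1:**
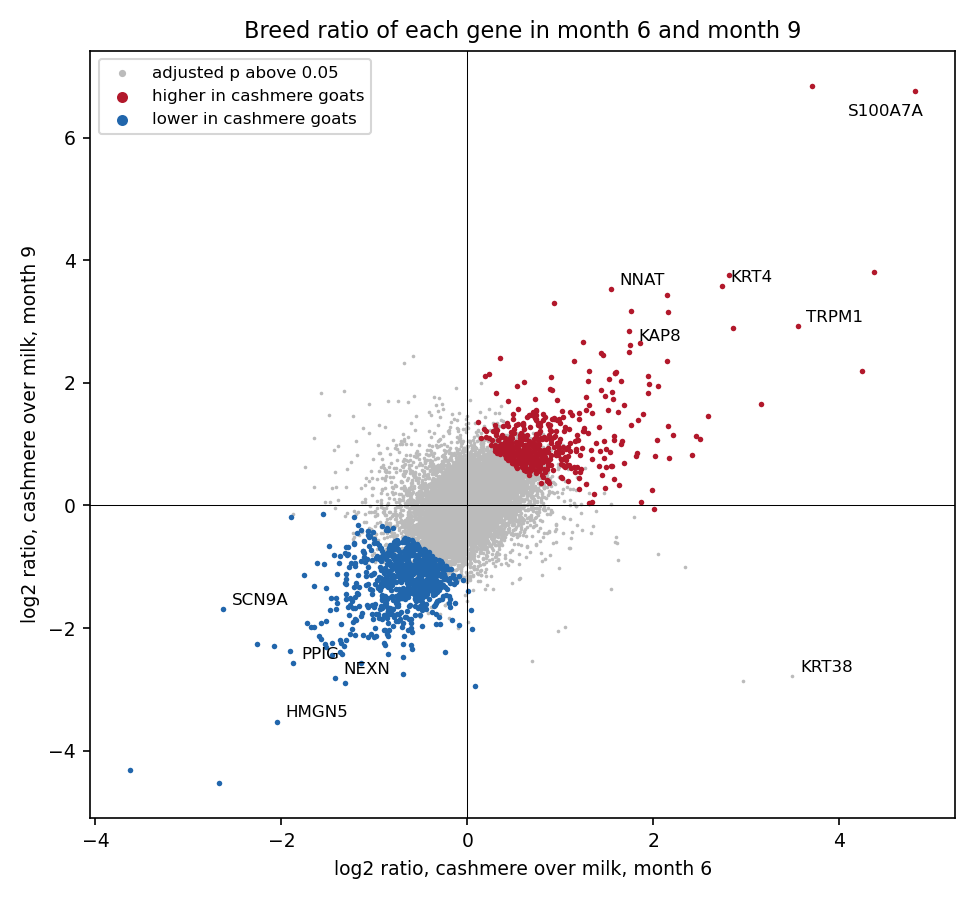
Each point is a gene with a mean of at least 5 CPM, with the log2 ratio of the cashmere to the milk library in month 6 on the horizontal axis and in month 9 on the vertical axis. Red points were higher and blue points lower in cashmere goats at an adjusted p of at most 0.05, and KRT38 lies far off the diagonal with ratios of 3.49 and -2.79.

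S100A7A, a relative of the antimicrobial skin protein psoriasin, had the largest fold change among the named genes. It was at 73.02 and 19.96 CPM in cashmere goats in months 6 and 9 (640 and 184 reads), against 2.41 CPM and 0 in milk goats (33 reads and 0). Both cashmere libraries were above both milk libraries, and the fitted log2 fold change was 5.40 ± 0.33 (SE, adjusted p = 6.88e-17). The evidence was far weaker in other fits. The S100A7A adjusted p was 3.14e-04 with RLE size factors, 0.0027 with scaling without hair genes and 0.0345 with DESeq2. In the fit of all 8 libraries the adjusted p was only just under the threshold of 0.05. Measured against a floor of 3 reads in the milk library, the level in month 9 was at least 76.4-fold higher in cashmere goats.

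KRT4, a keratin of mucosal epithelia that is scarce in normal epidermis, was at 22.02 and 17.6 CPM in cashmere goats and at 3.14 and 1.31 CPM in milk goats. The groups did not overlap, and the log2 fold change was 3.19 ± 0.31 (SE, adjusted p = 1.95e-10). In the second deposited gene set the KRT4 change was smaller, with a log2 fold change of 1.44. TRPM1, a cation channel of melanocytes, was at 20.9 and 5.21 CPM in cashmere goats against 1.61 and 0.523 CPM in milk goats, with a log2 fold change of 3.56 ± 0.40 (SE, adjusted p = 5.80e-09). Both cashmere libraries were again higher, with the higher level of each breed in month 6.

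NNAT, neuronatin, a small membrane protein, was at 126 and 49.1 CPM in cashmere goats and at 43.1 and 4.10 CPM in milk goats. The cashmere level in month 9 was only just above the milk level in month 6, and with DESeq2 the NNAT adjusted p was 0.0869. GLYATL2, which joins fatty acids to glycine, was at 475 and 190.4 CPM in cashmere goats against 124 and 53.2 CPM in milk goats, a log2 fold change of 1.89 ± 0.25 (SE). ALDH1A1, which makes retinoic acid from retinal, was at 57.04 and 43.2 CPM in cashmere goats and 20.4 and 12.4 CPM in milk goats, with a log2 fold change of 1.64. In both genes the cashmere libraries lay clearly above the milk libraries. SPINK7, an epithelial protease inhibitor, rose by 1.66 on the log2 scale, CA4, a membrane-bound carbonic anhydrase, by 2.10, CDO1, which oxidises cysteine, by 1.93, and PDE8B, which degrades cyclic AMP, by 1.87. ETNPPL, an enzyme of phosphoethanolamine breakdown, RPL39, a ribosomal protein, IL17REL, a relative of interleukin-17 receptors, and TMEM229A, a transmembrane protein, had log2 fold changes of 1.74, 1.67, 1.77 and 1.81.

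Among genes with a symbol and a mean of at least 5 CPM, HMGN5, a nucleosome-binding protein that loosens chromatin, had the largest fall in cashmere goats. The unnamed genes LOC106501943 and LOC102179113 had larger ones, with log2 fold changes of -3.61 and -4.29. Its level was 14.9 and 23.3 CPM in cashmere goats and 62.3 and 270.4 CPM in milk goats. The milk library of month 9 was by far the highest, but the milk library of month 6 was also above both cashmere libraries, and the log2 fold change was -2.82 ± 0.26 (SE, adjusted p = 2.00e-11). NEXN, an actin-binding protein of muscle, was at 111 and 98.8 CPM in cashmere goats against 298 and 696 CPM in milk goats, with a log2 fold change of -2.12 ± 0.29 (SE, adjusted p = 6.88e-07). SCN9A, a sodium channel of pain-sensing neurons, was at 2.17 and 1.84 CPM in cashmere goats and 14.3 and 6.36 CPM in milk goats, with a log2 fold change of -2.28. For both genes the breeds did not overlap.

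PTH1R, the receptor of parathyroid hormone and its related peptide, was at 31.3 and 17.03 CPM in cashmere goats against 77.9 and 128 CPM in milk goats, a log2 fold change of -2.10 ± 0.24 (SE, adjusted p = 1.32e-08). Its change in the second gene set was -0.93. PPIG, an isomerase that binds splicing factors, was at 217 and 356 CPM in cashmere goats and 796 and 2127 CPM in milk goats. Its log2 fold change of -2.23 ± 0.34 (SE) had an adjusted p of 7.27e-06, while in the second gene set it was -1.22 with an adjusted p of 0.0558. The splicing factors PRPF38B, NSRP1, RBM25 and RBMX2 had log2 fold changes of -1.89, -1.88, -1.85 and -1.90, and ZNHIT6, which assembles small nucleolar RNA-protein particles, had -1.91. PRPF38B had -0.80 in the second gene set. The cilium and flagellum genes MNS1, CCDC173 and CCDC34 had -1.96, -1.93 and -1.84, and the nuclear protein ANKRD12 and FAM133A had -1.82 and -1.87.

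In 29 of the 30 named genes both cashmere libraries lay on one side of both milk libraries, and KAP8 was the exception. The 30 were picked for large called changes in these same libraries, so this separation follows largely from the choice. Among all tested genes, 25.4% were separated in this way upward and 22.7% downward. The calls of 27 of the 30 held in those 7 alternatives. Every direction also held in the fit of all 8 libraries, but its breed term for months 6 and 9 draws on the same 4 libraries. The directions there are therefore no separate evidence, and only S100A7A, KRT4 and TRPM1 stayed past the threshold. With a library left out and no month term, 25 of the 30 stayed past the threshold without the milk library of month 6, 2 without the milk library of month 9 and 0 without either cashmere library.

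**Figure D2:**
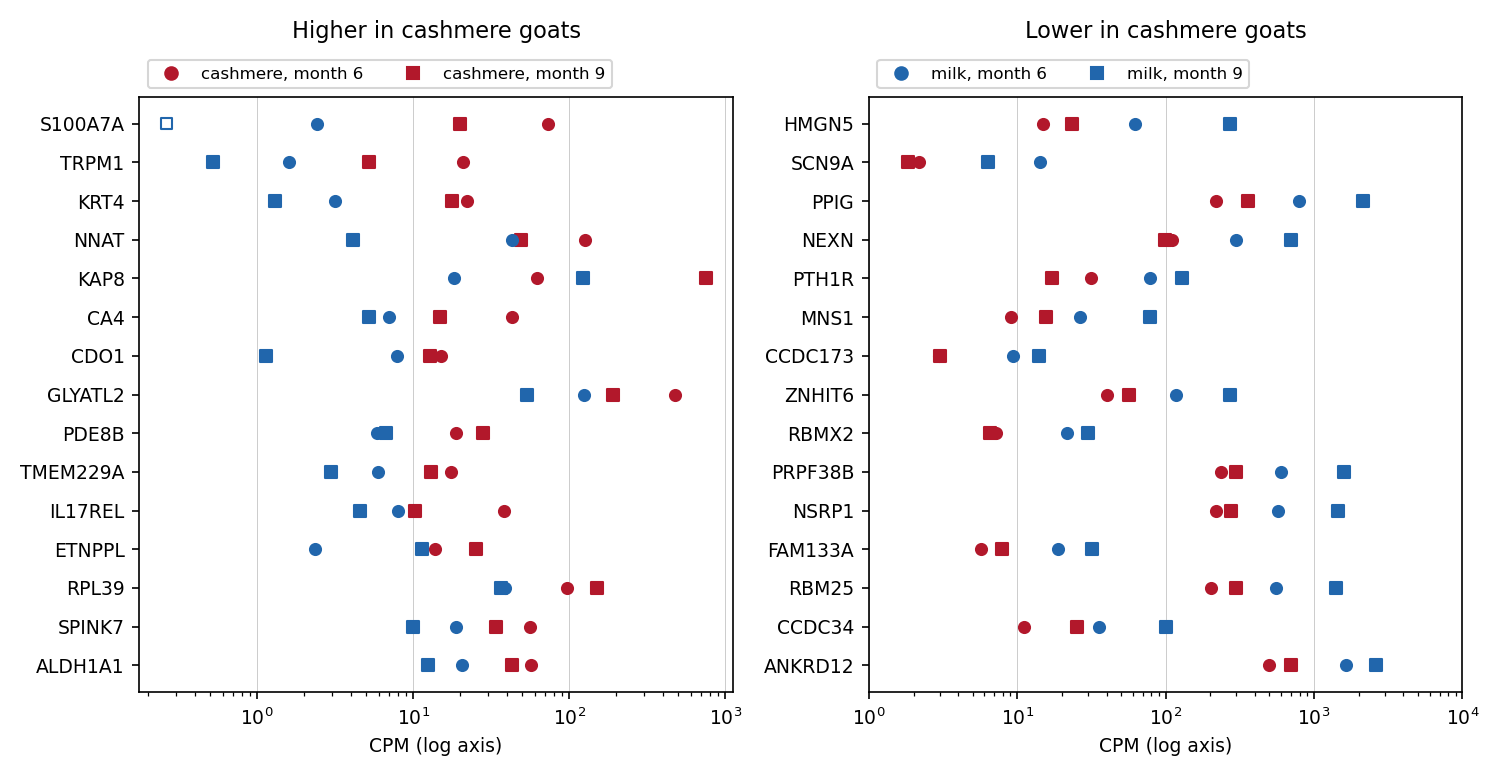
CPM (log axis) of the 15 named genes higher in cashmere goats (left) and the 15 lower (right), with cashmere libraries in red, milk libraries in blue, month 6 as circles and month 9 as squares. The open square marks S100A7A in the milk library of month 9, which had 0 reads and is drawn at the level of 3 reads, and KAP8 is the gene whose groups overlap.

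Hair shaft genes split into those for keratin-associated proteins, which were higher in cashmere goats, and those for hair keratins, none of which passed the test. Hair genes were the reason that months 6 and 9 were paired, but not their difference between breeds. Of 25 listed keratin-associated protein genes, 4 were in the table by name, and all 4 were higher in cashmere goats, against 3.66% of all tested genes, with a median log2 fold change of 1.48 against 0.04 for all genes. In bulk skin, fewer cells of a type and less RNA per cell cannot be told apart. KAP8, which encodes a high glycine-tyrosine protein of the shaft, was at 61.6 and 749 CPM in cashmere goats and at 18.3 and 122 CPM in milk goats. Within each month the cashmere library was higher, but the milk library of month 9 exceeded the cashmere library of month 6. The log2 fold change was 2.20 ± 0.27 (SE, adjusted p = 4.96e-08), and without the cashmere library of month 9 and the month term it was -0.19 with an adjusted p of 0.999.

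KRTAP11-1, a high-sulphur protein of the shaft, was at 639 and 1565 CPM in cashmere goats against 252 and 551 CPM in milk goats, a log2 fold change of 1.42. KRTAP15-1, at 56.2 and 164 CPM in cashmere goats and 19.7 and 55.9 CPM in milk goats, had a log2 fold change of 1.54. KRTAP3-1 was at 567 and 1088 CPM in cashmere goats against 193 and 695 CPM in milk goats (adjusted p = 0.0165). All 4 genes were higher in cashmere goats in each month. In the fits without a month term that leave out 1 library, the median over the 4 genes was 0.47 to 2.29 and 0 of them were called.

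Of 17 listed hair shaft keratins 8 were tested and 0 were called in either direction, and their median log2 ratio was 0.54 in month 6 and -0.29 in month 9. KRT35, an early keratin of the hair cortex, was at 643 and 836 CPM in cashmere goats and 344 and 673 CPM in milk goats (adjusted p = 0.221). KRT82, a keratin of the hair cuticle, was at 461 and 377 CPM in cashmere goats against 415 and 535 CPM in milk goats (adjusted p = 0.768). For both, the ranges of the breeds overlapped. KRT38, another cortex keratin, singled out after its values were seen, turned round between the months. It was at 150.3 and 24.8 CPM in cashmere goats in months 6 and 9 and at 13.2 and 173 CPM in milk goats, so it was high in the cashmere library of month 6 and the milk library of month 9. Such an opposite change of at least 2-fold in both months was found for 22 of 12853 genes with at least 100 reads (0.171%), while 95 genes (0.739%) were at least 2-fold higher in cashmere goats in both months and 106 (0.825%) were lower.

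The 9 inner root sheath genes also gave 0 calls. TCHH was at 43699 and 46271 CPM in cashmere goats and at 53635 and 157005 CPM in milk goats, with a log2 fold change of -1.03 ± 1.18 (SE, adjusted p = 0.663). Only the milk library of month 9 stood apart. KRT25, a keratin of the inner root sheath, was close between breeds, at 3498 and 4137 CPM in cashmere goats and 3229.7 and 3941 CPM in milk goats. Per length, TCHH was at 5062 and 5389 FPKM in cashmere goats and 5980.0 and 13339 FPKM in milk goats.

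Of 26 regulators of the hair matrix and cortex, 1 was higher and 1 lower (3.85% each), near the 3.66% and 5.75% of all tested genes. HOXC13, a transcription factor that switches on hair keratin genes, was at 135 and 182 CPM in cashmere goats against 76.3 and 101 CPM in milk goats, a log2 fold change of 0.83 ± 0.22 (SE, adjusted p = 0.00829). FOXQ1, needed in mice for the satin structure of the hair medulla, had a log2 fold change of -0.99. Among 18 outer root sheath and stem cell genes 0 were called. Of 32 cell division genes, 2 rose and 1 fell (6.25% and 3.125%, near the shares of all genes). BIRC5 and CENPA were higher, with log2 fold changes of 0.81 and 0.82, and CENPE, a kinetochore motor, was lower with -1.07.

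Where dermal papilla genes passed the test, they were lower in cashmere goats. Of 25 dermal papilla genes, 4 fell (16.0%, against 5.75% of all tested genes) and 0 rose, with a median log2 fold change of -0.17, which became 0.01 with library totals and 0.03 and 0.09 on the log2 FPKM scales. DKK2, a secreted Wnt modulator, was at 30.01 and 22.8 CPM in cashmere goats and 54.8 and 65.5 CPM in milk goats, and its log2 fold change was -1.19 ± 0.20 (SE, adjusted p = 4.44e-05). WIF1, which binds and blocks Wnt ligands, FGF7, a growth factor for keratinocytes, and RSPO3, which amplifies Wnt signals, had log2 fold changes of -0.86, -0.71 and -0.99. Both cashmere libraries were below both milk libraries for DKK2, WIF1, FGF7 and RSPO3. Of 32 Wnt ligands and inhibitors, 1 rose (3.125%, against 3.66% of all tested genes) and 5 fell (15.6%, against 5.75%). SHISA2, which holds Wnt and FGF receptors back in the cell, was at 184 and 340.1 CPM in cashmere goats against 81.1 and 161 CPM in milk goats, a log2 fold change of 1.13. The ligands WNT2 and WNT5B had log2 fold changes of -1.44 and -1.31. Among 30 FGF and BMP signalling genes 0 rose and 2 fell (6.67%, near the share of all genes), FGF7 and FGF22 (-0.76). In the second gene set FGF22 turned to 0.94 (adjusted p = 0.328), and FGF7 and RSPO3 had larger changes of -1.36 and -1.67.

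**Figure D3:**
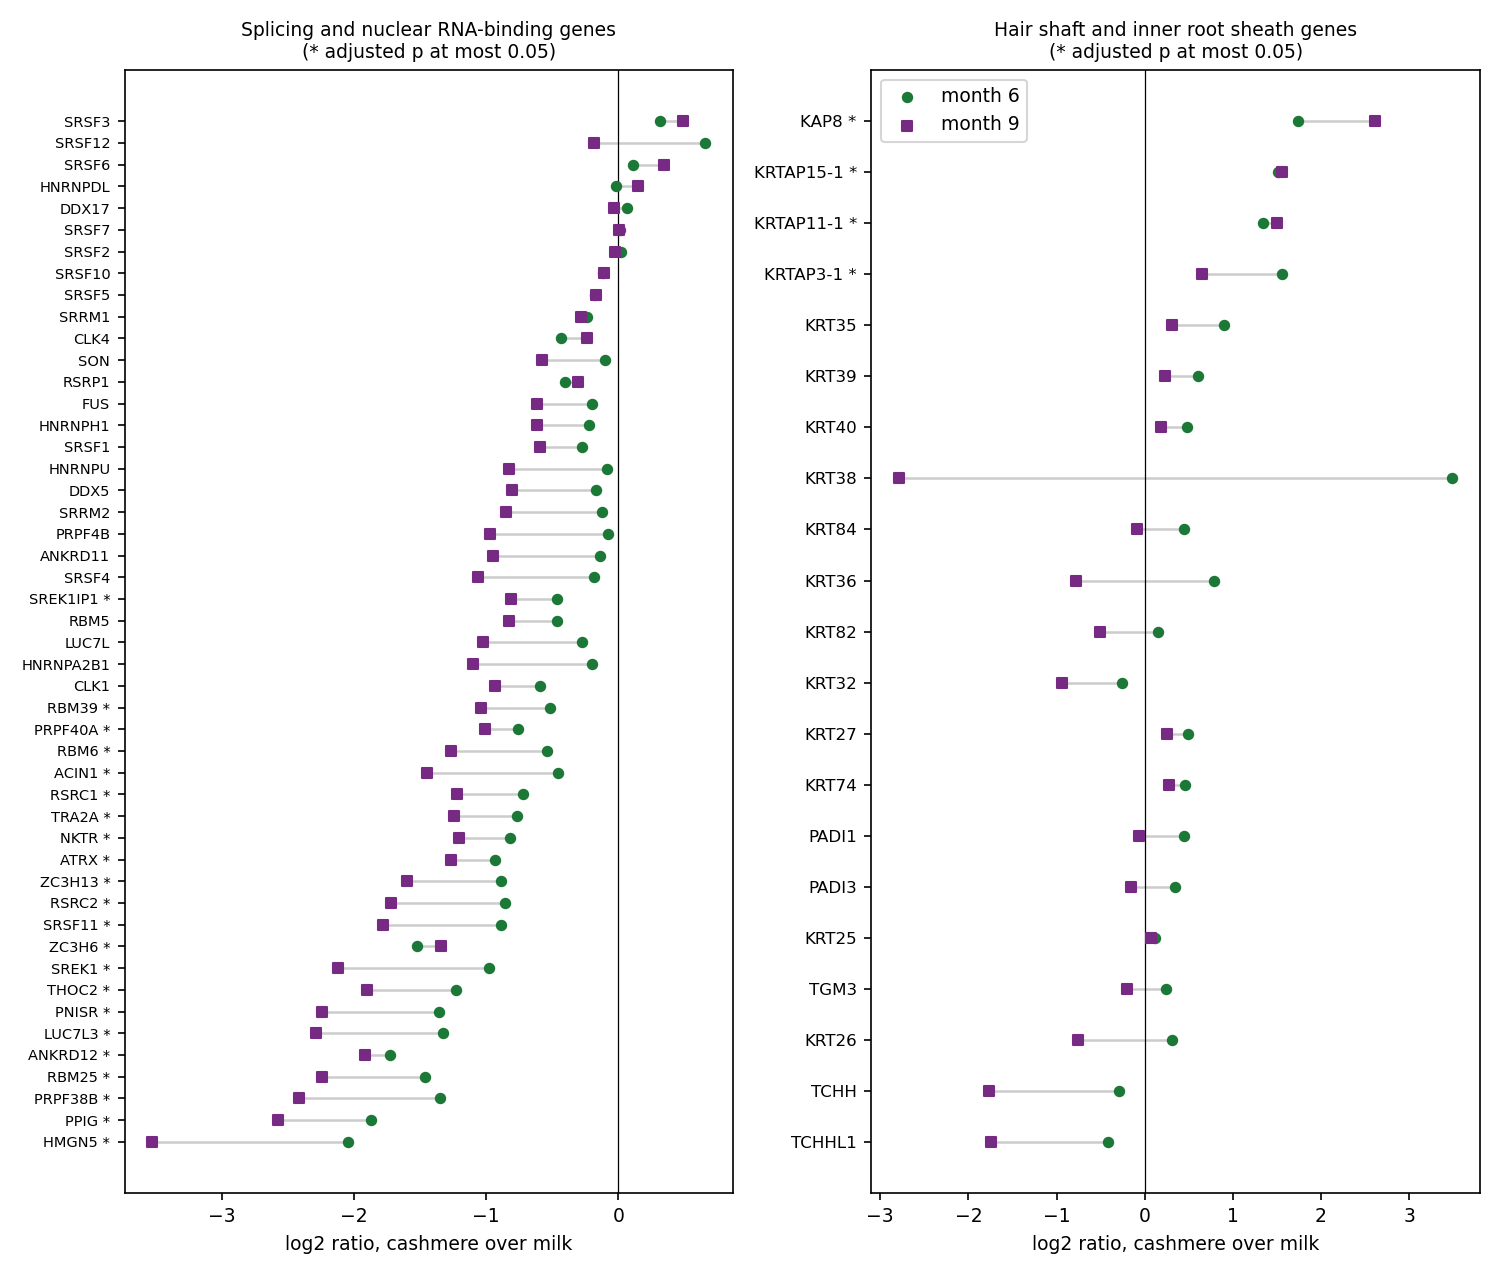
Log2 ratio of the cashmere to the milk library for each tested member of 4 gene lists, in month 6 (green circles) and month 9 (purple squares), with an asterisk for an adjusted p of at most 0.05. The left panel shows 48 splicing and nuclear RNA-binding genes, most of them to the left of 0, and the right panel shows keratin-associated proteins to the right of 0 in both months above hair keratins and inner root sheath genes on both sides of it.

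In the epidermis, 4 of 25 differentiation genes rose (16.0%, against 3.66% of all tested genes) and 1 fell (4.0%, against 5.75%). KLK5, a protease that loosens the outermost cell layer, was at 94.7 and 95.4 CPM in cashmere goats and 38.5 and 41.9 CPM in milk goats, a log2 fold change of 1.24 ± 0.20 (SE, adjusted p = 1.62e-05). KLK7, the protease that KLK5 activates, was at 372 and 531 CPM in cashmere goats against 166 and 288 CPM in milk goats, with a log2 fold change of 1.02. Both proteases were higher in both cashmere libraries. The cornified envelope gene SPRR4 and the differentiation peptide gene KRTDAP had log2 fold changes of 0.86 and 0.68, and the envelope gene CNFN had -0.69.

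Keratins of simple, mucosal and stressed epithelia gave 3 rises among 8 genes (37.5%, against 3.66% of all tested genes), KRT4, KRT7 and KRT8, and 0 falls. KRT7 and KRT8, keratins of simple epithelia and glands, had log2 fold changes of 0.74 and 0.64. The sweat gland list shares KRT7 and KRT8 and had 4 rises among 11 genes (36.4%, against 3.66% of all tested genes). The others were FOXA1, a transcription factor of glands (0.94), and AQP5, a water channel of secretory cells (0.96). AQP5 was at 22.02 and 14.4 CPM in cashmere goats and 5.92 and 13.9 CPM in milk goats. Its difference lay almost wholly in the month 6 pair.

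Innate defence genes had 2 rises (16.7%, against 3.66% of all tested genes) and 1 fall (8.33%, against 5.75%) among 12, and 1 of the rises was the marker S100A7A. The other, PGLYRP1, which binds bacterial peptidoglycan, was at 83.7 and 19.7 CPM in cashmere goats and 18.6 and 11.4 CPM in milk goats, with a log2 fold change of 1.53. Its relative PGLYRP4 had a log2 fold change of -1.15, but 0.36 in the second gene set. Of 26 sebaceous and lipid synthesis genes, 3 rose (11.5%, against 3.66% of all tested genes) and 0 fell (against 5.75%). SCD, which desaturates fatty acids in sebocytes, was at 59.4 and 30.9 CPM in cashmere goats against 14.5 and 17.5 CPM in milk goats (log2 fold change 1.43), and MC5R, the melanocortin receptor of sebaceous glands, had 0.84.

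Pigment cell genes had 4 rises (36.4%, against 3.66% of all tested genes) and 1 fall (9.09%, against 5.75%) among 11 tested of 17 in the table. The summed level of the 17 went the other way, at 311.7 and 312.2 CPM in cashmere goats against 346.3 and 345.4 CPM in milk goats. The melanocyte genes PMEL, TYRP1 and DCT were at 2.51 CPM or less, near the floor. Beside TRPM1, KIT and EDNRB, receptors that melanocytes need, had log2 fold changes of 1.22 and 1.24. KIT is also a mast cell gene. MLANA, a melanosome protein, was at 5.25 and 1.74 CPM in cashmere goats and 0.438 and 0.871 CPM in milk goats. Its difference was mainly in the month 6 pair, and the fitted log2 fold change was 2.31 ± 0.60 (SE, adjusted p = 0.00782). MLANA had 4.02 in the second gene set. ASIP, the agouti protein, which makes pigment cells form yellow rather than dark pigment, had lower levels in both cashmere libraries, at 81.1 and 84.95 CPM, against 154 and 151 CPM in milk goats.

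Genes of splicing and nuclear RNA binding gave more calls than any other list here, all of them lower in cashmere goats. Of 48 tested, 22 fell (45.8%, against 5.75% of all tested genes) and 0 rose, with a median log2 fold change of -0.65 against 0.04 for all genes. In 40 of the 48, both cashmere libraries were below both milk libraries, against 22.7% of all tested genes. PPIG, ANKRD12, HMGN5 and ZC3H6 had been picked out earlier from these data, and without them 18 of 44 fell, with a median of -0.63. The list itself was also chosen with earlier results of these data known, so the other 44 are not an independent set. THOC2, a subunit of the mRNA export machinery, was at 70.2 and 79.9 CPM in cashmere goats and 165 and 298 CPM in milk goats, a log2 fold change of -1.57 ± 0.24 (SE, adjusted p = 5.23e-06). PNISR, a nuclear speckle protein, was at 362 and 422 CPM in cashmere goats against 929.7 and 1994 CPM in milk goats, with -1.80. In both genes milk goats were higher in both months and highest in month 9.

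Of the 10 SR splicing factor genes (SRSF) on the list, 1 fell, SRSF11, with a log2 fold change of -1.34. The others were within -0.62 and 0.40 and did not pass the test, a comparison made after the values were seen. Summed over the 48 genes, the level was 12687 and 13256 CPM in cashmere goats and 19110 and 33164 CPM in milk goats. Month 9 therefore gave the wider gap, with a median log2 ratio of -0.99 against -0.44 in month 6. With no month term, 0 of the 48 were called without the milk library of month 9 and 28 without the milk library of month 6.

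Long transcripts and transcripts kept in the nucleus, listed as signs of RNA quality, moved the same way, and their part in the splicing gene result was not tested. Of 13 such genes, 8 fell (61.5%, against 5.75% of all tested genes) and 0 rose, and the median was a log2 fold change of -0.93. In all 13, both cashmere libraries were below both milk libraries, against 22.7% of all tested genes. Their summed level was 2946 and 3106 CPM in cashmere goats and 4630 and 6588 CPM in milk goats. GOLGA4, a long coiled-coil protein of the Golgi, was at 466 and 550.1 CPM in cashmere goats and 882 and 1601 CPM in milk goats. Gene length as implied by FPKM had a median of 3255 bases over 513 of the 518 genes called higher in cashmere goats, 5396 bases over 807 of the 815 called lower and 5368 bases over 13506 of all tested genes. Among 22 listed heat shock and chaperone genes 0 were called. HSP70.1, a stress-inducible HSP70 gene that the list does not hold under this symbol, was lower, at 22.8 and 43.4 CPM in cashmere goats and 71.9 and 108 CPM in milk goats (log2 fold change -1.48, adjusted p = 6.19e-07). DNAJC2, a chaperone partner of HSP70 proteins that is also not listed, had a log2 fold change of -1.53. Both were added after their values were seen, and HSP70 genes have near-identical copies. HSP90AA1, the stress-inducible HSP90, was at 2553 and 2364 CPM in cashmere goats and 3654 and 8029 CPM in milk goats (adjusted p = 0.155).

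The smooth muscle and nerve genes that passed the test were also lower in cashmere goats. Of 17 smooth muscle genes, 4 fell (23.5%, against 5.75% of all tested genes) and 0 rose. The median log2 fold change was -0.55, and the summed level was 4431 and 4002 CPM in cashmere goats and 5817 and 9747 CPM in milk goats. DES, the intermediate filament of muscle, was at 222 and 122 CPM in cashmere goats and 456 and 524 CPM in milk goats, a log2 fold change of -1.57 ± 0.28 (SE, adjusted p = 9.81e-05). LMOD1, which nucleates actin in smooth muscle, was at 20.7 and 22.7 CPM in cashmere goats against 55.03 and 68.8 CPM in milk goats, with -1.51. In the second gene set the DES change was -0.36 with an adjusted p of 0.315. The groups did not overlap in either gene, and TPM2 and SYNM had log2 fold changes of -1.12 and -0.82.

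Of 21 Schwann cell and neuron genes, 7 fell (33.3%, against 5.75% of all tested genes) and 0 rose, with a median of -0.50. Their summed level was 360.4 and 267.0 CPM in cashmere goats and 524.7 and 330.0 CPM in milk goats, so the breeds overlapped in the sum. CHGB, a protein of secretory granules in neurons and neuroendocrine cells, was at 0.342 and 0.325 CPM in cashmere goats, which is 3 reads in each library, and at 3.14 and 8.37 CPM in milk goats. The ranges of the 2 breeds were far apart for CHGB. LSAMP, an adhesion protein of neurons, had -1.68, and CELF4, a neuronal RNA-binding protein, had -1.51 but 1.05 in the second gene set. Without the milk library of month 9 and the month term, 0 smooth muscle genes and 1 neural gene were called. Endothelial genes gave 1 fall among 22 (4.55%), the transcription factor ERG (-0.73). Skeletal muscle genes gave 1 fall among 9 (11.1%), the troponin TNNT2 (-1.27), both against 5.75% of all tested genes. Adipocyte genes gave 1 rise among 10 (10.0%, against 3.66% of all tested genes), the fatty acid transporter CD36 (0.72).

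Macrophage, T cell, interferon and mast cell gene lists had medians of opposite sign in the 2 months, differences that were not tested. Endothelial genes (-0.07 in month 6 and 0.37 in month 9) and circadian clock genes (-0.11 and 0.35) had the same signs. Of these 2 lists, 40.9% and 52.6% of the members were lower in cashmere goats in month 6 and higher in month 9. The B cell list, with 3 genes tested, had medians of 0.18 and 0.05. The 15 macrophage and dendritic cell genes had a median log2 ratio of -0.86 in month 6 and 0.80 in month 9, and 11 of them (73.3%) were lower in cashmere goats in month 6 and higher in month 9, against 18.9% of all tested genes. Their summed level was 150.4 and 161.9 CPM in cashmere goats and 270.8 and 102.0 CPM in milk goats, so the cashmere libraries lay between the 2 milk libraries. C1QA, a complement subunit made by macrophages, was at 10.5 and 15.9 CPM in cashmere goats and 22.1 and 4.97 CPM in milk goats. T cell and NK cell genes had medians of -0.54 and 0.71, and interferon response genes of -0.32 and 0.41. Averaged over the months, AIF1 alone fell among the 15 macrophage genes (6.67%), with a log2 fold change of -0.74. Of 11 T cell and NK cell genes 0 were called, and 1 of 20 interferon response genes rose (5.0%). The macrophage and interferon shares are near the 5.75% lower and 3.66% higher of all tested genes. Mast cell and neutrophil genes had 1 rise among 6 (16.7%, against 3.66% of all tested genes), KIT again. Their medians were -0.67 in month 6 and 0.61 in month 9. Of 3 B cell and plasma cell genes 0 were called, and neither the 1 red blood cell gene tested, SLC4A1, nor the 1 mammary epithelium gene tested, ELF5, passed the test.

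Collagen levels were far apart in the cashmere libraries. COL1A1, the main collagen of dermis, was at 16817 and 1889 CPM in cashmere goats and 5765 and 4878 CPM in milk goats, so the cashmere libraries were the highest and the lowest of the 4. Of 25 collagens 2 rose (8.0%, against 3.66% of all tested genes) and 1 fell (4.0%, against 5.75%). COL6A5 and COL6A6, chains of collagen VI, rose (1.28 and 1.43), and COL7A1, the anchoring fibril collagen, fell (-0.78). Among 11 small leucine-rich proteoglycans, 18.2% were higher and 9.09% lower, against 3.66% and 5.75% of all tested genes. BGN and ASPN rose (0.78 and 0.63) and PODN fell (-0.88).

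**Figure D4:**
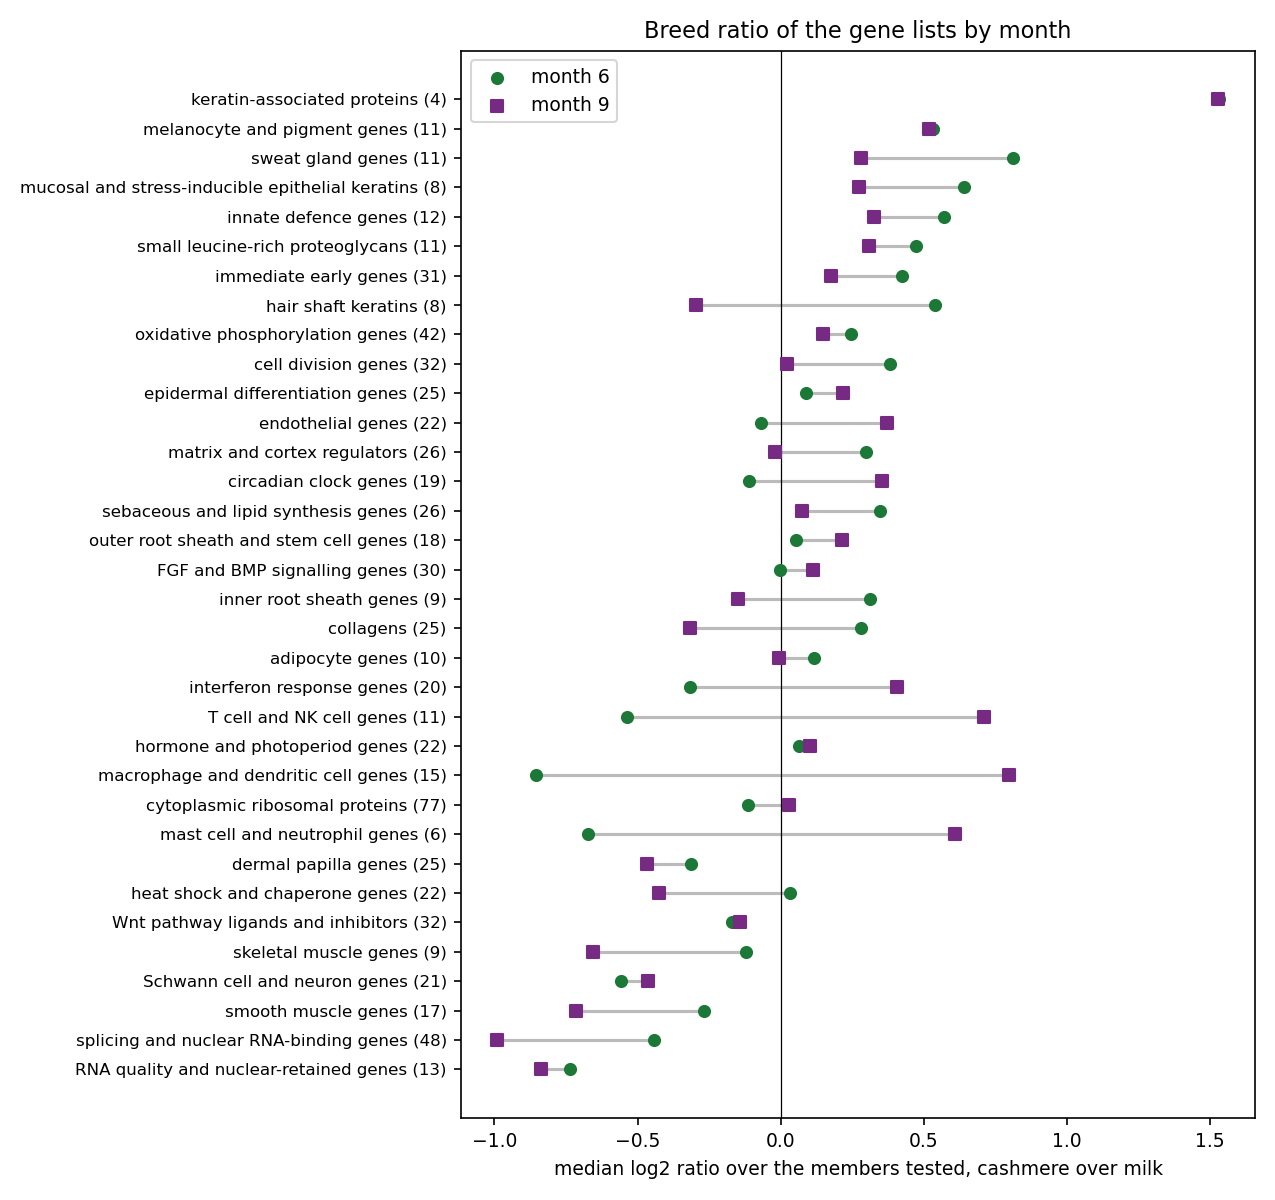
Median log2 ratio of the cashmere to the milk library over the tested members of each gene list (number of members in brackets), in month 6 (green circles) and month 9 (purple squares). Splicing, RNA quality, smooth muscle and nerve lists lie below 0 in both months, keratin-associated proteins lie near 1.5, and macrophage, T cell and interferon lists lie below 0 in month 6 and above 0 in month 9.

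Among general processes, 5 of 31 immediate early genes rose (16.1%, against 3.66% of all tested genes) and 0 fell. FOSB, a subunit of the AP-1 transcription factor, was at 43.8 and 14.97 CPM in cashmere goats and 17.98 and 4.97 CPM in milk goats, with a log2 fold change of 1.42. DUSP1, a phosphatase that ends MAP kinase signals, was at 73.8 and 50.4 CPM in cashmere goats and 31.4 and 26.3 CPM in milk goats, with 1.09. The cashmere library was higher in each month for both, although the FOSB ranges overlapped. Of 42 nuclear oxidative phosphorylation genes, 6 rose (14.3%, against 3.66% of all tested genes) and 0 fell (against 5.75%). ATP5C1 (0.86), a subunit of ATP synthase, and NDUFC2 (1.14), a subunit of complex I, were among the rises. The list does not hold every subunit, and NDUFA13 of complex I, which is not on it, fell, with a log2 fold change of -0.73 and an adjusted p of 0.0121. Ribosomal protein genes gave 2 rises (2.60%) and 8 falls (10.4%, against 5.75% of all tested genes) among 77. Their median of -0.06 became 0.12 with library totals and 0.19 on the log2(FPKM + 1) scale. Several have near-identical copies, among them RPL39 and RPS12, and how the authors assigned such reads is not given in the sources used here. Of 19 circadian clock genes, 0 were called. Among 22 hormone and photoperiod genes, with 4.55% called in each direction, PTH1R fell and DIO1, which activates thyroid hormone, rose, at 13.5 and 7.49 CPM in cashmere goats against 3.14 and 3.49 CPM in milk goats (1.62). The DIO1 change was 0.69 in the second gene set, with an adjusted p of 0.296.

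Genes with an identifier but no name in the files made up 116 of the 518 higher calls (22.4%) and 99 of the 815 lower calls (12.1%), against 1353 of all 14163 tested genes (9.55%). A run of them lies next to ZNF181, a zinc finger gene, in the gene order of the RefSeq ARS1.2 table, and was chosen after its values were seen. Of its 11 genes, ZNF181 included, 10 were tested and all 10 were called higher in cashmere goats. The bounds of the run were set with these calls known. Its share of calls therefore cannot be compared with the 3.66% of all tested genes. In 9 of the 10 the call held in the same 7 alternatives as above, while ZNF181 was called in 1 of them. In the fit of all 8 libraries 0 of the 10 passed, with adjusted p of 0.171 to 0.447. LOC102169125 took the most reads of the run, at 1401 and 1241 CPM in cashmere goats and 317 and 115 CPM in milk goats, a log2 fold change of 2.78. LOC102169411 was at 169 and 164 CPM in cashmere goats against 23.9 and 11.9 CPM in milk goats, with 3.28. Both cashmere libraries were well above both milk libraries in each. ZNF181 at the end of the run had the smallest change, 0.69, and its ranges overlapped. The unnamed genes may be close copies of one another, in which case reads could be split between them.

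**Figure D5:**
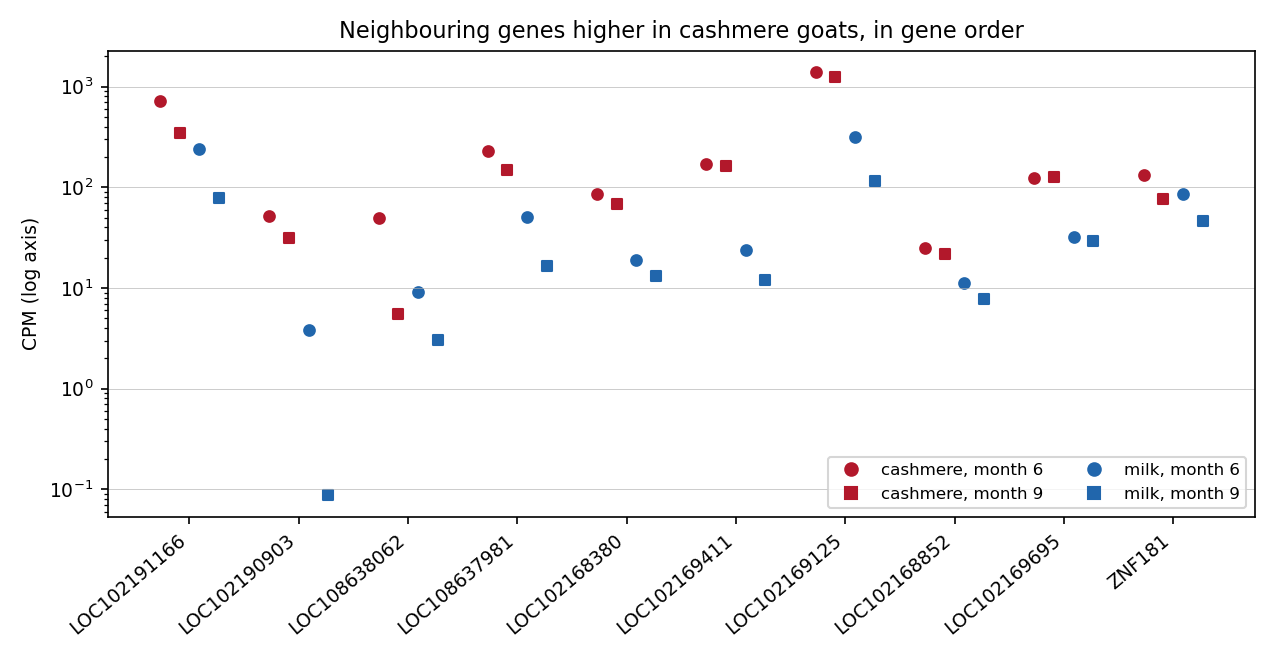
CPM (log axis) of the 10 tested genes of the run in gene order, each with cashmere libraries (red) left of milk libraries (blue), month 6 as circles and month 9 as squares. In the 8 genes other than LOC108638062 and ZNF181 both red points lie above both blue points, and the lowest blue point, LOC102190903 in month 9, is 1 read.

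Whether these breed differences belong to months 6 and 9 was tested against the breed difference of months 3 and 12 in all 8 libraries. The difference between the month pairs passed the threshold for 2 of 14085 genes (0.0142%), and 650 had an unadjusted p under 0.05. DESeq2 called 87 and library totals 147, both with the same 2 genes among them, and the 2 other scalings called 0. The 2 genes were CHAC1 and LOC108633210. CHAC1, which breaks down glutathione, was at 96.2, 116, 160 and 107 CPM in cashmere goats in months 3, 6, 9 and 12, and at 6.43, 88.6, 219 and 4.93 CPM in milk goats. Its levels were therefore close between breeds in months 6 and 9 (log2 fold change -0.04) and far apart in months 3 and 12 (4.16), where milk goats were low. LOC108633210 was at 13.8, 40.9, 48.1 and 1.58 CPM in cashmere goats and at 47.7, 12.2, 8.27 and 9.504 CPM in milk goats. It was higher in cashmere goats in months 6 and 9 and lower in months 3 and 12.

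None of the 30 named genes passed that test, so none can be called particular to months 6 and 9. KRT4 came nearest, with a difference between the month pairs of 4.01 ± 0.55 (SE, adjusted p = 0.0602). Scaled over all 8 libraries, it was at 1.72, 23.2, 18.5 and 1.84 CPM in cashmere goats in months 3, 6, 9 and 12 and at 3.09, 3.31, 1.38 and 3.08 CPM in milk goats. S100A7A was at 4.23, 77.0, 21.1 and 0 CPM in cashmere goats against 2.68, 2.54, 0 and 0 CPM in milk goats (adjusted p of the difference 0.298). Both genes were high in the cashmere libraries of months 6 and 9 and low in the other libraries. NEXN, by contrast, was at 96.2, 117, 104 and 119 CPM in cashmere goats and at 304, 313, 734 and 664 CPM in milk goats, lower in cashmere goats in every month. All 15 named genes that were lower in cashmere goats had the same sign in months 3 and 12, and 6 of them passed the threshold there. Of the 15 that were higher, 11 had the same sign and 2 passed, KAP8 and ETNPPL.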

How the data were processed

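Polyadenylated RNA of skin was sequenced as paired-end libraries, per the labels' protocols. Bowtie2 is named in the submitters' processing notes. Its version and role, the genome build and the counting method are not given in the sources used. The authors deposited raw read counts per gene for 18815 genes, FPKM for the same genes, normalized by the authors for gene length and mapped reads, and raw counts for a second set of 20780 genes with gene lengths. One table names the cashmere columns with a transliterated word. Over 12931 shared symbols, each of the 8 columns correlated best with its own breed and month in the other count table.

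Quasi-likelihood tests in edgeR 4.0.16 (R 4.3.3) were run on the counts of the 4 libraries of months 6 and 9 with month and breed as terms, after filterByExpr and TMM scaling, with Benjamini-Hochberg adjustment and a threshold of 0.05. In simulated counts of this design, fold changes were recovered but the share of false calls was above the threshold. The simulation gave all genes the same spread, so its share of false calls need not be that of these data. Standard errors derive from each fold change and its F value. The difference between month pairs was tested in all 8 libraries, with 2 residual degrees of freedom. Breed ratios within 1 month compare 1 library with 1 library, with a prior count of 2, and have no test. Alternatives were DESeq2 1.42.0, other scalings and filters, limma 3.58.1 on log2(FPKM + 1) and log2(FPKM + 0.1), no month term, all 8 libraries, the second gene set and each library left out. The standard errors carry the spread between these libraries as moderated across genes. Floors reflect read counts only, and PCR copies were not marked by molecular identifiers.

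The genes KAP8, S100A7A, KRT4, HMGN5 and NEXN were given as markers. Other named genes were, by rule, the 15 in each direction with the largest fold change among called genes averaging at least 5 CPM and with a symbol not starting with LOC, which includes all 5 markers, and up to 4 called members of each list, otherwise the 2 with the highest level. SRSF genes, KRT38, C1QA, COL1A1, HSP70.1, DNAJC2, NDUFA13, LOC106501943, LOC102179113 and the run beside ZNF181 were chosen after their values were seen, as were called members of a list beyond those 4. The comparison, the members and the gene lists were chosen with earlier results of these data known. Sequences are not printed here, and a few genes that the rule takes from the lists are not reported here.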

Additional observations from a re-analysis of the deposited data

Results flagged for a closer look

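The breed difference of LOC108633210 in months 6 and 9 exceeded that in months 3 and 12 by 4.20 on the log2 scale, and that of CHAC1 was lower by the same size (-4.20), both with an adjusted p of 0.0484 in the test of that difference. Both genes also passed with library totals, without a filter and with DESeq2, whereas 0 genes passed with RLE size factors, with scaling without hair genes or with the stricter filter.

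Some gene lists had medians of opposite sign in the 2 months, each month being 1 cashmere library against 1 milk library, and these differences between months were not tested. For hair shaft keratins the median log2 ratio, cashmere over milk, was 0.54 in month 6 and -0.29 in month 9. Interferon response genes had -0.32 and 0.41, macrophage and dendritic cell genes -0.86 and 0.80, T cell and NK cell genes -0.54 and 0.71, and mast cell and neutrophil genes -0.67 and 0.61. The summed macrophage level was similar in the cashmere libraries and was highest in the milk library of month 6 and lowest in that of month 9.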

How the results depend on the processing

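The count of 1333 genes called became 534 with RLE size factors, 499 with library totals, 242 with scaling without hair genes, 735 with the stricter filter and 443 with DESeq2. It was 645 and 601 with limma on log2(FPKM + 1) and log2(FPKM + 0.1), 8 in the fit of all 8 libraries and 166 for genes called with every other scaling, the stricter filter, DESeq2 and both FPKM fits. Without a filter (1439) and in the second gene set (1185) it stayed within 1.5 times. With no replicate block, that is without the month that pairs the libraries, it was 0. Leaving out 1 library gave 0 to 1016 (19 without milk month 9, 1016 without milk month 6). The count of 2 for the difference between month pairs became 147 with library totals, 103 without a filter and 87 with DESeq2. It was 0 with RLE size factors, with scaling without hair genes, with the stricter filter and with no replicate block, and 0 to 981 with 1 library left out (697 without cashmere month 3, 136 without cashmere month 12, 981 without milk month 3). The cause of these shifts was not tested. Each of the 30 named genes kept its direction in every alternative that gave it a value, except KAP8, which reversed to -0.19 without the cashmere library of month 9 and the month term. These alternatives reuse the libraries of months 6 and 9, so a kept direction is no separate evidence. In the second gene set 23 of the 30 had a value and 22 stayed past the threshold. With 1 residual degree of freedom and 1 library per breed and month, spread between animals is not separable from breed, and genes under about 5 CPM rest on few reads.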
